A study of Capra hircus with 9 samples.

Results

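The entries of 4 miRNA families known from exocrine and endocrine glands, miR-375, miR-7, miR-216 and miR-217, were followed in the submandibular salivary gland of the goat. They were taken by name alone, as every entry of those 4 family numbers, whatever its letter, arm or prefix. This gave 12 of the 2189 mature miRNA entries in the count table: 2 of miR-375, 4 of miR-7, 3 of miR-216 and 3 of miR-217. Of the 12, 5 carried a goat name (prefix chi-) and 7 a name built from other species, where the ending -x stands for the 5p arm and -y for the 3p arm. Small RNA libraries came from healthy female Lubo goats of 1 month, 12 months and 24 months, 3 goats at each age, all raised alike in natural light and fed freely, and the labels name no treatment. Library totals ran from 8288492 to 13277448 counts. Each library is named by its age and the number in its label (1, 2 and 3 at 1 month, 3, 4 and 5 at 12 months, 2, 3 and 5 at 24 months). The tissue is bulk gland, so more cells of a type and more RNA per cell cannot be told apart in any value below.

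A miRNA guides silencing proteins to messenger RNAs through its seed, bases 2 to 8 from its 5′ end, and entries with different seeds can have different targets even when their names match. miR-375 was first cloned from pancreatic islet cells of the mouse, restrains insulin secretion there, and is also abundant in secretory epithelia. miR-7 is enriched in islet, pituitary and other neuroendocrine cells in mammals and restrains growth factor signals and secretion. miR-216 and miR-217 sit close together in mammalian genomes and are known as markers of the enzyme-secreting acinar cells of the pancreas.

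The sequences of the entries that the results turn on, as listed in the deposited table and written as DNA, are shown with the seed in capitals, since the names alone do not show which entries are forms of the same RNA.
miR-375-y: tTTGTTCGttcggctcgcgtga
chi-miR-7-5p: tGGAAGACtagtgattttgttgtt
chi-miR-7-3p: aACAAATCacagtctgccata
miR-7-y: aCAAATCAcagtctgccatatt
miR-7-x: aCTGATGAtgtgttgttg
miR-216-x: tAATCTCAgctggcaactgtga
chi-miR-216b: aAATCTCTgcaggcaaatgtgat
chi-miR-217-5p: tACTGCATcaggaactgattgga

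The 12 entries held 11 distinct seeds. chi-miR-217-3p and miR-217-y were the pair that shared one, and their 21 bases differed at 1 position. chi-miR-7-3p and miR-7-y matched over 20 bases with starts shifted by 1 base, so they were forms of the same arm with different seeds. miR-216-x and chi-miR-216b matched at 18 of 22 bases and their seeds differed at 1 base. miR-7-x was only 18 bases long and did not hold the seed of chi-miR-7-5p, so its name and its sequence go apart, and it is kept here by its name only. The seeds of miR-375-y and chi-miR-7-5p occurred in no other entry of the table. In the RefSeq gene table of the goat assembly ARS1.2, used for names and neighbours only, MIR7 lies within HNRNPK, a gene for an RNA-binding protein, and MIR217 and MIR216B are next to each other between EFEMP1 and CCDC85A.

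Of the 9 libraries, 1 stood apart. Across entries, which are not replicates, its log2(CPM + 0.5) values correlated with those of the other pair of its age at 0.92 and 0.91, where that pair reached 0.99 with each other. In this library, numbered 2 at 1 month, leukocyte miRNAs such as miR-142 and miR-150 took 12.7% of counts, while the other pair of that age had 3.73% and 5.78%. Epithelial miRNAs such as miR-200 and miR-141 took 0.875% there and 5.82% and 3.97% in the other pair. Mesenchymal miRNAs such as miR-143 and miR-199 took 1.66% there and 10.7% and 13.6% in the other pair. The markers of gland epithelium were thus low in that library, and the tests against 1 month are also given without it, a setting that was chosen for the marker lists and nearest entries after seeing the data.

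miR-375 dominated the group and was higher at 12 and at 24 months than at 1 month. Levels are CPM over library totals scaled by the trimmed mean of M values (TMM) unless called unscaled, and errors are SD over 3 goats. miR-375-y stood at 8603, 8352 and 8157 CPM in 1-month libraries 1, 2 and 3, at 20821, 18952 and 29516 CPM in 12-month libraries 3, 4 and 5, and at 31379, 34509 and 29843 CPM in 24-month libraries 2, 3 and 5. The 3 ages did not overlap, and 12-month library 5 stood nearer to the 24-month libraries than to the other two of its age. The means were 8371 ± 224, 23096 ± 5638 and 31910.4 ± 2378 CPM. Over all libraries miR-375-y held 1881904 of the 1894554 counts on the 12 entries, and the other arm, miR-375-x, held 9.

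Against 1 month, miR-375-y was higher at 12 months by a log2 fold change of 1.46 (SE 0.30, adjusted p = 0.00779) and at 24 months by 1.93 (SE 0.30, adjusted p = 0.0022), in edgeR's quasi-likelihood test with Benjamini-Hochberg adjustment over 937 entries. Each of the 3 older goats stood above each 1-month goat in both comparisons. The rise at 24 months was past the threshold in 20 of 20 settings tried. The rise at 12 months was past it in 13 of 20, and leaving out 12-month library 5 lowered it to 0.85 (adjusted p = 0.148). It also missed the threshold without 12-month library 3 (adjusted p = 0.0661) or 24-month library 2 (0.0532) or 3 (0.051). The median of all entries moved as well, from −0.02 in the main fit to −0.45 without 12-month library 5. Relative to that median miR-375-y stood at 1.48 and 1.30. Without 12-month library 3 or 24-month library 2 or 3 the medians were −0.37, −0.40 and −0.40. miR-375-y then stood at 1.61, 1.55 and 1.56 relative to them. Without 1-month library 2 the log2 fold changes were 1.44 (adjusted p = 0.00224) at 12 months and 1.91 (adjusted p = 0.000591) at 24 months. Between 12 and 24 months the value was 0.47 (SE 0.29, adjusted p = 0.998), and it was 0.93 (adjusted p = 0.978) without 12-month library 5. The lowest 24-month library (29843 CPM) stood just above the highest 12-month library (29516 CPM), and on unscaled CPM they overlapped, at 26494 in 24-month library 5 against 27243 in 12-month library 5.

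**Figure D1:**
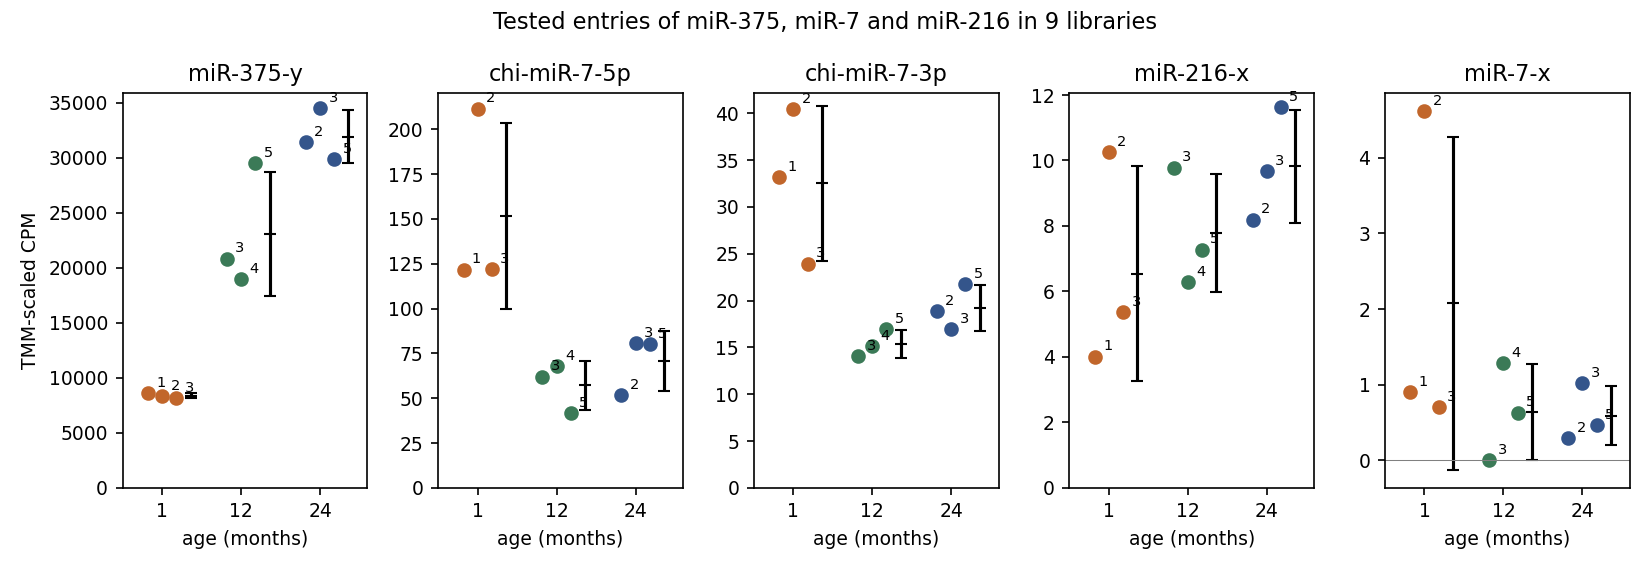
TMM-scaled CPM (y axes, each from 0 or just below) of the 5 tested entries at 1, 12 and 24 months (x axes). Points are single libraries with their label numbers and bars are mean ± SD (n = 3). miR-375-y lies at 8157 to 8603 CPM at 1 month and at 29843 to 34509 CPM at 24 months, while chi-miR-7-5p is highest in 1-month library 2, at 211 CPM.

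By rank, miR-375-y was the 20th most abundant entry in each of the 3 libraries of 1 month. It ranked 11th, 12th and 9th in 12-month libraries 3, 4 and 5, and 9th, 9th and 8th in 24-month libraries 2, 3 and 5. Counting error was small beside the spread between goats of the same age. miR-375-y took 0.79 to 1.02% of counts in the 1-month libraries and 2.65 to 3.26% in the 24-month libraries. The Wilson 95% interval was 1.01 to 1.02% in 1-month library 1, at 1.02%, and 3.25 to 3.27% in 24-month library 3, at 3.26%. Such intervals cover counting error only.

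The level of miR-375-y was even at 1 month although those libraries differed in other gland miRNAs. Its coefficient of variation there was 2.67%, the second lowest of 477 entries with a mean of at least 10 CPM, against 24.4% at 12 months and 7.45% at 24 months. The evenness at 1 month depended on the scaling: as unscaled CPM the 2 miR-375 entries together stood at 9333 ± 1241, with 1-month library 2 lowest at 7907 for miR-375-y. chi-miR-148a-3p, the most abundant secretory gland miRNA, stood at 60339, 4430 and 42094 CPM in 1-month libraries 1, 2 and 3. Its ratio to miR-375-y, chosen after the values were seen, was 7.01, 0.53 and 5.16 in those libraries, and the 6 older libraries lay between 4.26 and 6.90. In 8 libraries, then, the ratio lay between 4.26 and 7.01, and in 1-month library 2 it was far below. The part of the leukocyte share in this was not tested.

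chi-miR-7-5p, the guide arm of miR-7, went the other way. It stood at 122, 211 and 122 CPM in 1-month libraries 1, 2 and 3, at 62.1, 67.8 and 41.5 CPM in 12-month libraries 3, 4 and 5, and at 51.6, 80.7 and 80.2 CPM in 24-month libraries 2, 3 and 5. Each 1-month library was above each older one, 1-month library 2 was the highest of all, and the 2 older ages overlapped. The means were 151.6 ± 51.8, 57.1 ± 13.9 and 70.9 ± 16.7 CPM.

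At 12 months chi-miR-7-5p fell by 1.41 on the log2 scale against 1 month (SE 0.39, adjusted p = 0.0305, lower in 3 of 3 goats). Without 1-month library 2 the value was −1.12 (adjusted p = 0.0296), and without 12-month library 4 it missed the threshold at −1.53 (adjusted p = 0.0742). At 24 months the value against 1 month was −1.10 (SE 0.39, adjusted p = 0.0547) and did not pass, although no 24-month library reached a 1-month library. This call turned with the setting: DESeq2 (adjusted p = 0.0219) and library size alone (adjusted p = 0.0257) passed it. It was −0.80 without 1-month library 2 (adjusted p = 0.0782). Between 12 and 24 months the value was 0.31 (SE 0.39, adjusted p = 0.998).

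The other arm, chi-miR-7-3p, had the same direction with a smaller value. It stood at 33.2, 40.4 and 23.9 CPM at 1 month, at 14.0, 15.1 and 17.0 CPM at 12 months, and at 18.9, 16.9 and 21.8 CPM at 24 months, in the order of the library numbers. The lowest 1-month library, at 23.9 CPM, was above every older library. Its log2 fold change was −1.08 at 12 months (SE 0.36, adjusted p = 0.0568) and −0.76 at 24 months (SE 0.36, adjusted p = 0.13) against 1 month, and neither passed in edgeR. DESeq2 (adjusted p = 0.00956) and limma voom (adjusted p = 0.0491) passed the first, as did edgeR without 1-month library 2 (−0.91, adjusted p = 0.043). The value at 24 months was −0.59 (adjusted p = 0.138) without that library.

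The balance between the miR-7 entries named for each arm is given as values, since an exact test of 3 goats against 3 cannot go below p = 0.1. The entries named as 5p, chi-miR-7-5p and, by its name only, miR-7-x, took 81.8 ± 2.88%, 77.7 ± 6.28% and 77.6 ± 5.49% of all miR-7 counts at 1, 12 and 24 months. The difference was −4.15 points at 12 months against 1 month (exact two-sided permutation p = 0.5, adjusted p = 0.643 over 9 tests) and −4.25 points at 24 months against 1 month (exact p = 0.2, adjusted p = 0.3). The lowest shares were those of 12-month library 5 (70.4%) and 24-month library 2 (71.7%), which were also the libraries with the least chi-miR-7-5p. The share is itself made largely of chi-miR-7-5p counts, so this likeness is not a separate result. With miR-7-x set aside, counts of chi-miR-7-5p were 4.66 ± 0.86, 3.78 ± 1.16 and 3.73 ± 1.02 times those of chi-miR-7-3p at 1, 12 and 24 months.

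miR-7-x, the short entry without the miR-7 seed, was at the edge of detection. Its counts were 11, 58 and 10 in the 1-month libraries, 0, 12 and 7 in the 12-month libraries, and 3, 9 and 4 in the 24-month libraries. 1-month library 2 held the highest count. The counts of the other 1-month libraries, 11 and 10, overlapped with those at 12 months and lay just above those at 24 months. On TMM-scaled CPM they overlapped with 24 months too, at 0.90 and 0.71 against 1.02 in 24-month library 3. The log2 fold changes of miR-7-x, −1.66 (SE 1.08, adjusted p = 0.273) and −1.80 (SE 1.09, adjusted p = 0.234) at 12 and 24 months against 1 month, did not pass in edgeR. Without 1-month library 2 they were −0.32 (adjusted p = 0.843) and −0.47 (adjusted p = 0.768). The table lists no count of 1 in any library, so an entry at 0 may have had a single read.

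The opposite courses of the leading pair were compared inside each library, where scaling plays no part. Counts of miR-375-y were 70.7, 39.5 and 67.0 times those of chi-miR-7-5p at 1 month, 336, 279 and 711 times at 12 months, and 609, 427 and 372 times at 24 months. On the log2 scale the ratio was 5.84 ± 0.46, 8.66 ± 0.71 and 8.84 ± 0.37 (SD, n = 3). It was higher at 12 months than at 1 month by 2.83 and at 24 months than at 1 month by 3.00, with no overlap (exact two-sided permutation p = 0.1 for both, the smallest that 3 against 3 allows, adjusted p = 0.225 over 9 tests). Each entry of the pair had by itself set 1 month apart from both older ages, in opposite directions. The lack of overlap in their ratio, and so its exact p, follows from this and is not a separate result. The differences in the ratio were 2.56 and 2.74 without 1-month library 2. Between 12 and 24 months the difference was 0.18 (exact p = 0.7, adjusted p = 0.788), and the ages overlapped.

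**Figure D2:**
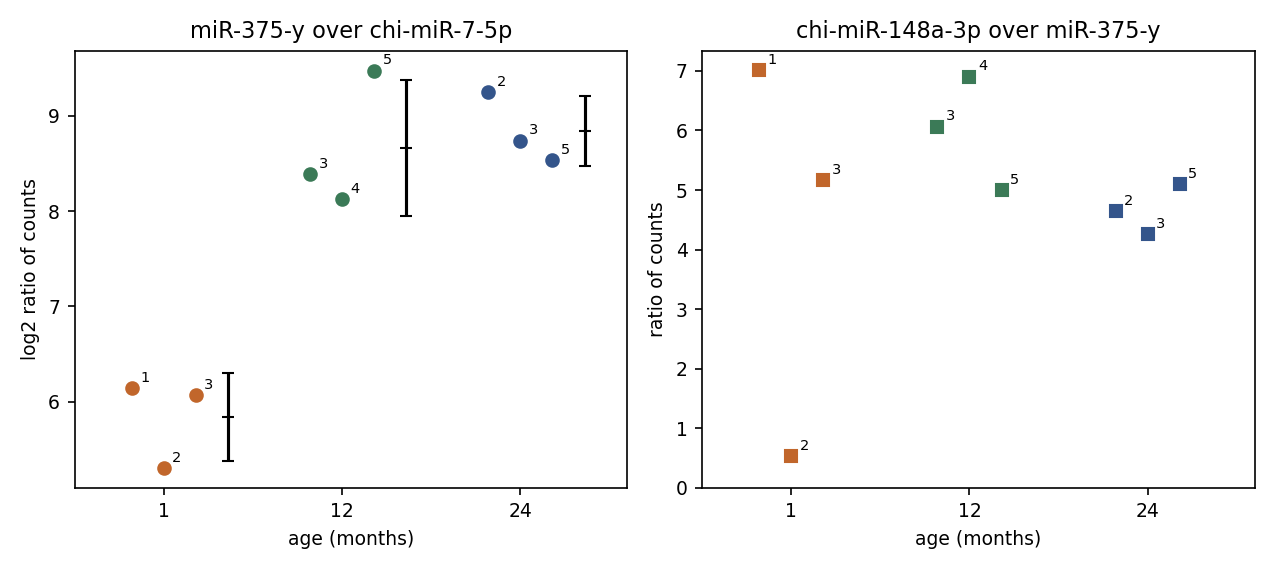
Left, log2 ratio of miR-375-y to chi-miR-7-5p counts (y axis) by age (x axis), points being libraries with their label numbers and bars mean ± SD (n = 3); the 1-month libraries lie between 5.30 and 6.14 and the older ones at 8.13 or more. Right, ratio of chi-miR-148a-3p to miR-375-y counts, linear axis from 0, where 1-month library 2 stands at 0.53 and the other 8 libraries between 4.26 and 7.01.

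miR-216 and miR-217, the acinar miRNAs of the pancreas, were far below miR-375-y and chi-miR-7-5p at every age. The leading entry miR-216-x, with 741 of the 831 counts on the 6 entries, stood at 4.01, 10.3 and 5.37 CPM in 1-month libraries 1, 2 and 3. It stood at 9.78, 6.29 and 7.27 CPM in 12-month libraries 3, 4 and 5, and at 8.19, 9.67 and 11.6 CPM in 24-month libraries 2, 3 and 5. The ages overlapped, and 1-month library 2 stood above every 12-month library. The log2 fold change was 0.25 at 12 months (SE 0.45, adjusted p = 0.696) and 0.59 at 24 months (SE 0.45, adjusted p = 0.349) against 1 month in edgeR, and 0.34 (SE 0.45, adjusted p = 0.998) between 12 and 24 months. Without 1-month library 2 the values against 1 month were 0.70 (adjusted p = 0.178) at 12 months and 1.04 (adjusted p = 0.0588) at 24 months, and no setting passed either. Summed over the 6 entries, the unscaled level was 7.97 ± 3.11, 8.16 ± 1.5 and 10.3 ± 2.08 CPM at 1, 12 and 24 months.

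The 7 entries that the filter on low counts left out were miR-7-y, chi-miR-216b, chi-miR-217-5p, chi-miR-217-3p, miR-217-y, miR-216-y and miR-375-x. None of them exceeded 30 counts in any library, and 31 of their 63 values were 0. chi-miR-217-5p was seen in 9 of 9 libraries, with 2, 10 and 3 counts in the 1-month libraries, 6, 2 and 5 in the 12-month libraries, and 3, 6 and 7 in the 24-month libraries. Its 2 counts in 1-month library 1 equal 0.193 unscaled CPM, with a Wilson 95% interval of 0.053 to 0.705. chi-miR-216b had 2, 9 and 8 counts in the 1-month libraries, 0, 2 and 2 in the 12-month libraries, and 4, 0 and 7 in the 24-month libraries. miR-7-y, the shifted form of the miR-7 3p arm, had 30 counts in 1-month library 2 and between 2 and 16 elsewhere. miR-375-x was seen in 12-month library 3 with 4 counts and in 24-month libraries 2 and 3 with 3 and 2. At this depth these entries were not tested for a difference between ages in the main fit.

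Counted as a list, 1 of the 5 tested entries was higher and 1 lower at 12 months than at 1 month in edgeR, miR-375-y and chi-miR-7-5p. Of all 937 entries tested, 19.2% were called in that comparison, 5.98% higher and 13.2% lower. Of those calls 31.1% were higher, and 14.4% were when library size alone set the scale. At an unadjusted p under 0.05 stood 3 of the 5, beside 39.9% of all. Without 1-month library 2, 3 of the 5 were called, chi-miR-7-3p being the third, beside 22.5% of the 967 entries then tested. At 24 months against 1 month 1 of the 5 was higher and 0 were lower, beside 26.3% of all entries called, 8.75% higher and 17.5% lower. Of those calls 33.3% were higher, and 19.2% with library size alone and 46.3% with the upper quartile. At an unadjusted p under 0.05 stood 2 of the 5, beside 42.6% of all, and without 1-month library 2 the count called was again 1, beside 26.4% of all. Between 12 and 24 months 0 of the 5 passed in edgeR, DESeq2 or limma voom, with 0 at an unadjusted p under 0.05 in edgeR, and 0% of all entries were called, with 4.27% at an unadjusted p under 0.05. Without overlap between ages were 1 higher and 2 lower of the 5 in both comparisons with 1 month. Over all entries 26.3% were higher and 22.2% lower in this way at 12 months, 48.5% in sum, and 21.3% higher and 25.8% lower at 24 months, 47.2% in sum. Between 12 and 24 months 1 of the 5 was higher without overlap, miR-375-y, beside 9.82% of all entries, 6.08% higher and 3.74% lower. The median log2 fold change of the 5 was −1.08 at 12 months and −0.76 at 24 months against 1 month, beside −0.02 and −0.06 over all tested, and 3 of the 5 are miR-7 entries. In counts, however, miR-375-y outweighed them. The share of the 12 entries in all counts was 0.954 ± 0.12%, 2.23 ± 0.433% and 2.98 ± 0.307% at 1, 12 and 24 months, with no overlap between either older age and 1 month (exact two-sided permutation p = 0.1 for both, the smallest possible, adjusted p = 0.225 over 9 tests).

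**Figure D3:**
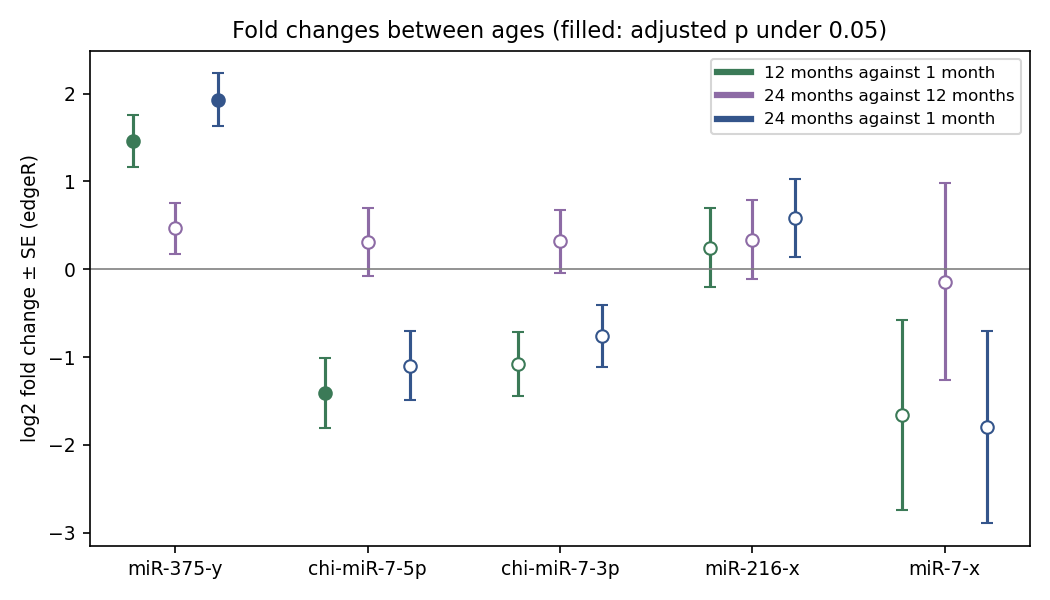
Log2 fold change (y axis, bars ± SE of the edgeR fit) of the 5 tested entries (x axis) for 12 months against 1 month, 24 months against 12 months and 24 months against 1 month. Filled points passed an adjusted p of 0.05: miR-375-y at 1.46 and 1.93, and chi-miR-7-5p at −1.41.

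Some entries of the secretory and epithelial lists were higher at the older ages, as miR-375-y was, and most tested leukocyte entries were lower, by the counts below. Secretory miR-148 and miR-152 entries took 7.69, 0.63 and 5.68% of counts in 1-month libraries 1, 2 and 3. They took 12.4 to 14.6% in the 12-month libraries and 14.4 to 14.8% in the 24-month libraries. Of the 7 tested, 2 were higher and 0 lower at 12 months and 3 higher and 0 lower at 24 months against 1 month. The most abundant of them, chi-miR-148a-3p, had 1.92 at 12 months (adjusted p = 0.0626) and 2.06 at 24 months (adjusted p = 0.0454) on the log2 scale. Epithelial entries, among them miR-200, which keeps cells epithelial, took 0.875 to 5.82% in the 1-month libraries, 10.3 to 11.9% in the 12-month libraries and 10.7 to 11.8% in the 24-month libraries. Of 22 tested, 5 were higher at 12 months and 9 at 24 months against 1 month, and 0 were lower. chi-miR-200a, the most abundant, had 1.89 and 2.03 on the log2 scale and missed the threshold at both ages (adjusted p = 0.0695 and 0.0506). chi-miR-141, the next most abundant, passed at both, with 2.55 (adjusted p = 0.00497) and 2.69 (adjusted p = 0.00367). Leukocyte entries took 3.73 to 12.7% in the 1-month libraries, 0.604 to 0.712% in the 12-month libraries and 0.477 to 0.617% in the 24-month libraries. Of 16 tested, 12 were lower at 12 months and 14 at 24 months, with 0 higher. With 1-month library 2 left out, 4 secretory and 14 epithelial entries were higher and 11 leukocyte entries lower at 12 months, and 4, 15 and 11 at 24 months. miR-142-x, of the leukocyte list, stood at 103086 CPM in 1-month library 2, against 19026 and 31185 in the other two. The part of the leukocyte share in the lower level of chi-miR-7-5p at the older ages was not tested.

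The remaining marker lists were counted in the same way. Mesenchymal entries took 1.66 to 13.6% of counts at 1 month and 6.51 to 9.04% in the 6 older libraries. Endothelial miR-126 took 0.441 to 1.45%, 0.781 to 0.939% and 0.693 to 0.748% at 1, 12 and 24 months. Red cell entries (miR-144, miR-451 and miR-486) took 0.201 to 0.403%, 0.0735 to 0.36% and 0.101 to 0.116% at those ages. The muscle list, with miR-1 and miR-133, reached 0.247% in 12-month library 4 and 0.0611% at most elsewhere. The neural list, with miR-9 and miR-124, did not exceed 0.011% in any library, and hepatic miR-122 reached 0.142% in 24-month library 3. Against 1 month, 12 months had 2 of 10 muscle and 1 of 19 mesenchymal entries higher, while none of the 7 red cell, 4 endothelial, 8 neural and 3 hepatic entries tested passed in edgeR (1 of these, an endothelial entry, at an unadjusted p under 0.05). At 24 months 2 muscle, 1 mesenchymal and 1 endothelial entries were higher and 2 red cell entries lower. No neural or hepatic entry passed then, with 1 neural and 2 hepatic entries at an unadjusted p under 0.05. Beside these, 5.98% of all 937 entries tested were called higher and 13.2% lower at 12 months, and 8.75% and 17.5% at 24 months. Leaving out 1-month library 2 changed the mesenchymal counts, of 19 tested, to 3 higher and 5 lower at 12 months and 4 higher and 8 lower at 24 months. Of all 967 entries then tested, 22.5% were called at 12 months and 26.4% at 24 months in either direction. The endothelial entry at 24 months no longer passed. The muscle, red cell, neural and hepatic counts of calls were as before. These lists were counted with edgeR only.

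**Figure D4:**
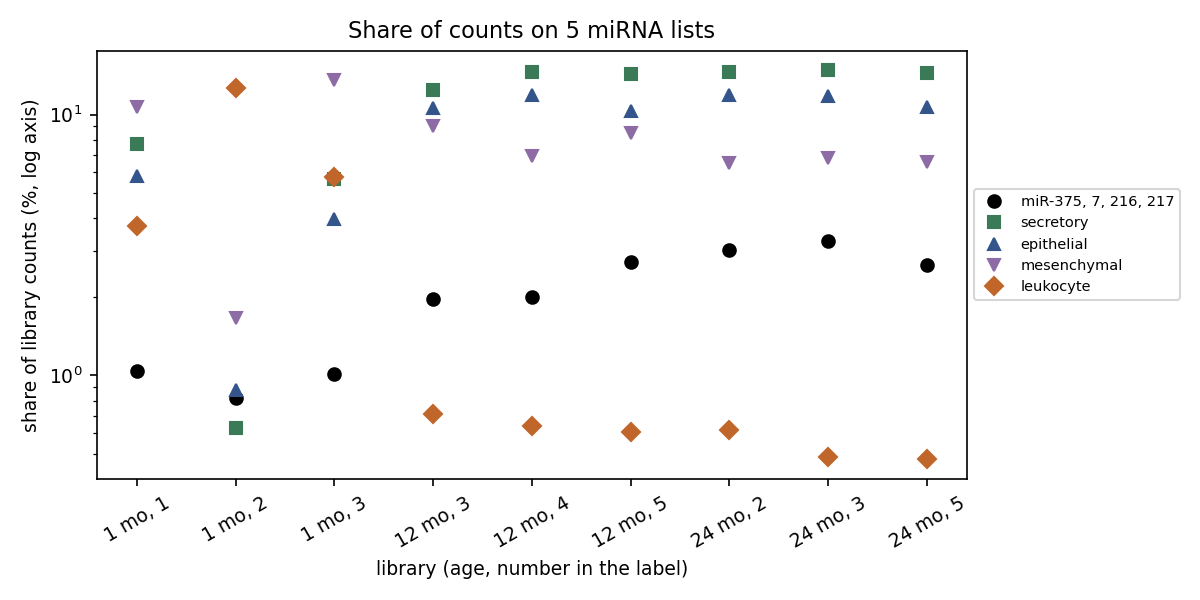
Share of library counts (y axis, log scale, %) on the miR-375, miR-7, miR-216 and miR-217 entries and on 4 other lists, by library (x axis, age and label number). The gland entries lie at 0.816% in 1-month library 2, where the secretory list falls to 0.63% and the leukocyte list reaches 12.7%, and between 1.96 and 3.27% at 12 and 24 months.

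Entries with the most similar course over the 9 libraries were found by the root mean square difference of log2(CPM + 0.5) after each entry's own mean was subtracted, over 783 named entries. Because they were picked on these same libraries, their differences between ages largely follow from the choice and add no separate support. Nearest to miR-375-y were chi-miR-30b-3p (0.15), miR-1468-x (0.25), chi-miR-29a-3p (0.28), miR-628-y (0.31) and miR-186-x (0.34), where the median over all entries was 1.05. The log2 fold change of chi-miR-30b-3p was 1.33 at 12 months (adjusted p = 0.0272) and 1.75 at 24 months (adjusted p = 0.00823) against 1 month in edgeR. chi-miR-29a-3p, of a family that restrains collagen synthesis, had 1.72 (adjusted p = 0.00473) and 1.80 (adjusted p = 0.00341). At 13.8 and 3448 CPM on average, both were below miR-375-y. None of the 5 shared the seed of miR-375-y. miR-1468-x and miR-628-y also passed in both comparisons in edgeR. miR-186-x missed the threshold at 12 months (1.05, adjusted p = 0.0521) and passed at 24 months (1.41, adjusted p = 0.0157). chi-miR-30b-3p and chi-miR-29a-3p passed in both comparisons without 1-month library 2 as well, at adjusted p = 0.0217 and 0.00543 for chi-miR-30b-3p and 0.0011 and 0.000757 for chi-miR-29a-3p.

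Nearest to chi-miR-7-5p were chi-miR-140-5p (0.21), chi-miR-103-3p (0.22), chi-miR-128-5p (0.26), miR-28-y (0.26) and chi-miR-421-3p (0.30), where the median was 0.97. chi-miR-140-5p, best known from cartilage, had a log2 fold change of −1.51 at 12 months (adjusted p = 0.0256) and −1.41 at 24 months (adjusted p = 0.0283) against 1 month in edgeR. chi-miR-103-3p, known in the mouse for its effect on insulin sensitivity, had −1.27 (adjusted p = 0.0261) and −1.15 (adjusted p = 0.0329). With 1-month library 2 left out, both still passed at both ages. chi-miR-140-5p then stood at −1.16 (adjusted p = 0.0199) at 12 months and −1.05 (adjusted p = 0.0263) at 24 months. The values of chi-miR-103-3p were then −0.96 (adjusted p = 0.0125) at 12 months and −0.83 (adjusted p = 0.02) at 24 months. The other 3 did not pass in either comparison, with or without that library, and chi-miR-128-5p averaged only 1.35 CPM. All 5 were highest in 1-month library 2, as chi-miR-7-5p was. The likeness is a description over 9 libraries of 3 ages, and the adjusted p-values of entries picked for it are not separate results.

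**Figure D5:**
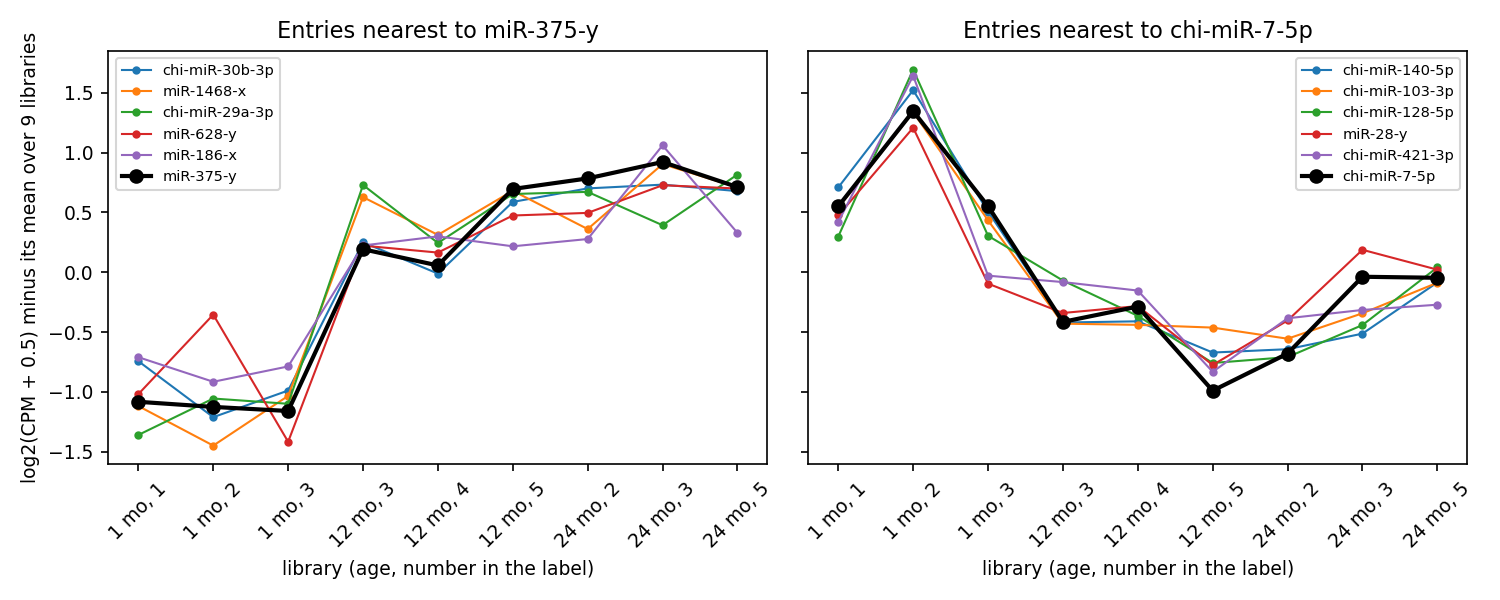
Log2(CPM + 0.5) minus its mean over the 9 libraries (y axis) by library (x axis, age and label number) for miR-375-y (left) and chi-miR-7-5p (right), black, each with the 5 entries of the nearest course in colour. The left set is low in all 3 libraries of 1 month, and the right set peaks in 1-month library 2.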

How the data were processed

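Total RNA of the submandibular gland was taken with TRIzol and sequenced with an Illumina small RNA protocol, per the labels' protocols. The authors deposited unscaled read counts per mature miRNA entry with its sequence, per the file headers. The submitters' processing notes name FastQC and Bowtie but give neither version nor role. For the genome build and the miRNA database the entry is: not given in the sources used here. Adapter ligation differs between sequences, so levels are safer to compare between libraries than between miRNAs. The smallest count above 0 is 2.

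Of 2189 entries, filterByExpr (minimum count 10, total 15) passed 937. edgeR 4.0.16 under R 4.3.3 fitted age over the 9 libraries (TMM, robust quasi-likelihood F test, common biological coefficient 0.534, residual df 6). The fit was also run on counts simulated from its own estimates, which cannot show whether the model suits these libraries. Standard errors are the log2 fold change over the square root of F. DESeq2 1.42.0 and limma voom 3.58.1 were alternatives, with other scalings, no filter, merged longer forms, goat names only, both ages only, a block by label number and each library left out. Shares and ratios were compared with exact permutation tests. Each library is a separate goat, per the labels. The members, the lists and the naming rule (each tested member, the 5 nearest entries to each of the leading pair, and the most abundant of other lists where a result turns on them) were chosen with earlier results of these data known.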

Additional observations from a re-analysis of the deposited data

How the results depend on the processing

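In all 20 settings miR-375-y kept its direction in the 3 comparisons, and so did chi-miR-7-5p. The median of all entries moved with the setting, from −0.49 with no filter to 0.12 with the upper quartile at 12 months against 1 month. Relative to it miR-375-y stood at 1.30 to 1.73 and chi-miR-7-5p at −1.63 to −1.14. At 24 months against 1 month the median ran from −0.66 with no filter to 0.07 with the upper quartile. Relative to that median miR-375-y stood at 1.95 to 2.34 and chi-miR-7-5p at −1.14 to −0.66. At 12 months against 1 month miR-375-y missed the threshold with no filter (1.24) and with only the libraries of both ages (1.19), which left 1 member called in each. At 24 months against 1 month chi-miR-7-5p passed with library size alone (−1.32), DESeq2 (−1.16) and merged longer forms (−1.11), which gave 2 members called. Leaving out 1 library at a time gave 0.85 to 1.60 for miR-375-y and −1.78 to −1.12 for chi-miR-7-5p at 12 months, −1.33 to −0.80 for chi-miR-7-5p at 24 months, and 1 to 3 and 1 to 2 members called. It also turned values near 0 between 12 and 24 months: the log2 ratio of the leading pair ran from −0.090 to 0.58, the 5p share of miR-7 from −3.73 to 2.81 points, and miR-7-x from −0.57 to 0.79. miR-7-x also turned with limma voom (0.40) and merged longer forms (0.020). miR-216-x at 12 months against 1 month ran from −0.21 to 0.70 on leaving out a library and was −0.018 with only the libraries of both ages. Leaving out 1 library gave 0.35 to 0.93 for miR-375-y and 0.31 to 0.69 for chi-miR-7-5p between 12 and 24 months, none past the threshold. The cause of these changes was not tested.

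All entries called at 12 months against 1 month numbered 180, against 285 by DESeq2, 109 with goat names only and 83 without 12-month library 4. At 24 months against 1 month they numbered 246, against 126 with goat names only and 158, 116 and 161 without 24-month library 2, 3 or 5. The share of higher calls at 12 months also moved, at 31.1% with TMM in edgeR, 14.4% with library size alone, 13.5% with only the libraries of both ages and 43.0% with limma voom. Between 12 and 24 months 5 entries were called with no filter and 2 without 12-month library 5, where edgeR otherwise called 0.

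The label numbers are shared by different goats of different ages and do not pair them: deviations of same-numbered libraries from their age means had correlations of −0.20 to 0.17. With the number as a replicate block, which leaves few degrees of freedom, miR-375-y was 1.54 (adjusted p = 0.241) and chi-miR-7-5p −1.67 (adjusted p = 0.329) at 12 months, with 0 members and 4 entries called in all. At 24 months miR-375-y passed under the block (1.91, adjusted p = 0.0467), with 71 entries called in all, and miR-7-x turned to 1.22 between 12 and 24 months. The entries that the filter on low counts left out, which include both arms of miR-217, were not compared between ages in the main fit.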

Other observations

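In 1-month library 2 several low entries of the miR-7, miR-216 and miR-217 families had their highest counts of the 9 libraries, namely miR-7-x (58), miR-7-y (30), miR-216-x (129), chi-miR-217-5p (10) and chi-miR-216b (9). That library also had the highest total of the series, 13277448 counts. As unscaled CPM, miR-216-x stood at 9.72 there against 10.3 in 24-month library 5, and chi-miR-216b at 0.678 against 0.715. chi-miR-217-5p stood at 0.753 there, close to 0.724 in 12-month library 3. miR-7-x (4.37) and miR-7-y (2.26) were still highest in 1-month library 2. These names were picked after their values were seen, and no test was run.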
